A study of Mus musculus with 6 samples.

Results

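The ETS transcription factors examined here were the products of Elf1, Elf3, Ehf, Ets1, Ets2, Etv1, Etv4, Etv5, Etv6 and Elk3. Every probe that the platform annotation pairs with 1 of these 10 gene symbols was taken, which gave 16 of the 25697 probes and 10 of the 16593 named genes on the array. Expression was measured in GIF-14, a line of gastric epithelial cells derived from fetal mouse stomach, with MouseRef-8 version 2 BeadChips of Illumina, where the brightness of the beads carrying a probe reports the amount of its transcript. One group of 3 arrays held RNA from untreated cells and the other group of 3 held RNA from cells given recombinant TGF-β1 at 2.5 ng/ml for 24 h. All cells of both groups were Runx3-/-;p53-/-, and the treated population was the epithelial fraction taken before epithelial-mesenchymal transition (EMT). The 3 arrays of a group were described as biological triplicates of this single line, so that the p-values measure the spread between these cultures and not between animals or lines. The comparison asks how the transcripts of this factor family differed between TGF-β1-treated and untreated cells.

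ETS factors share a DNA-binding domain, the ETS domain, that reads a short core of the letters GGAA. Because many members recognise similar sites, the factors are told apart mainly by where they are expressed, by the partner proteins that bind beside them and by phosphorylation. Several members, among them Ets1, Ets2, the Etv4 group and Elk3, are known to be phosphorylated by ERK, the last kinase of the Ras pathway. Elf3 and Ehf are known as epithelial ETS factors.

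The mean non-normalized signal per array ranged from 406 to 519 units, and 44.3% to 45.9% of the probes were detected above the negative control beads. Pearson's r of log2 signals over the 11189 probes tested lay between 0.980 and 0.996 for arrays of the same group and between 0.935 and 0.954 for arrays of different groups. All 7 epithelial markers with a probe were detected on every array, and after TGF-β1 1 of them rose, 3 fell and 3 did not pass the test. These markers had a summed signal of 39665 to 43111 units in untreated cells and 31485 to 37413 after TGF-β1. For the immune, endothelial and fibroblast markers, detection was counted on the brightest probe of each gene only. None of the 6 immune markers with a probe could be tested, and 5 of them were detected on no array. Of 7 endothelial markers 5 were detected on no array, and only Pecam1 could be tested, at least 1.08-fold lower after TGF-β1 (limma, adjusted p = 0.0119). Of 8 fibroblast markers 7 were detected on no array, and the remaining 1, Col1a1, rose by at least 2.13-fold (adjusted p = 5.2e-05). The Runx3 probe was not above background on any array, between 56.5 and 72.3 units, although its position relative to the deletion was not given. No probe was annotated to Trp53, the gene of p53, so that its transcript could not be examined.

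Elf3 fell and Etv4 and Elk3 rose after TGF-β1, while Ets1, Ets2 and Etv6 did not pass the test and the small decrease of Elf1 depended on the choice of arrays. A gene was called from its brightest tested probe. Of the 10 genes 7 had a probe that passed the detection filter, and of these 2 rose, 2 fell and 3 did not pass. Over all 7725 genes tested 34.2% were called, 16.4% in the upward and 17.8% in the downward direction, so the 4 called genes of 7 stand against a background in which calls were common. Counted as probes, 2 of the 9 tested probes rose, 4 fell and 3 did not pass, beside 16.4% higher and 15.9% lower, or 32.3% in either direction, among all probes tested. The median log2 fold change was 0.23 over the 7 member genes and 0.03 over all genes. Over the 9 tested member probes it was -0.22, beside 0.04 over all probes tested, so that its sign depended on the unit counted. The signals of the groups did not overlap for 6 of the 7 genes, or 8 of the 9 probes, beside 48.2% of all genes and 45.9% of all probes. The treated arrays lay above the untreated ones for 24.6% of all genes and 24.5% of all probes, and below them for 23.7% and 21.5%. The other 7 probes, which include all probes of Ehf, Etv1 and Etv5, stayed between 62.0 and 100.04 units with detection p-values of 0.0539 to 0.975.

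**Figure D1:**
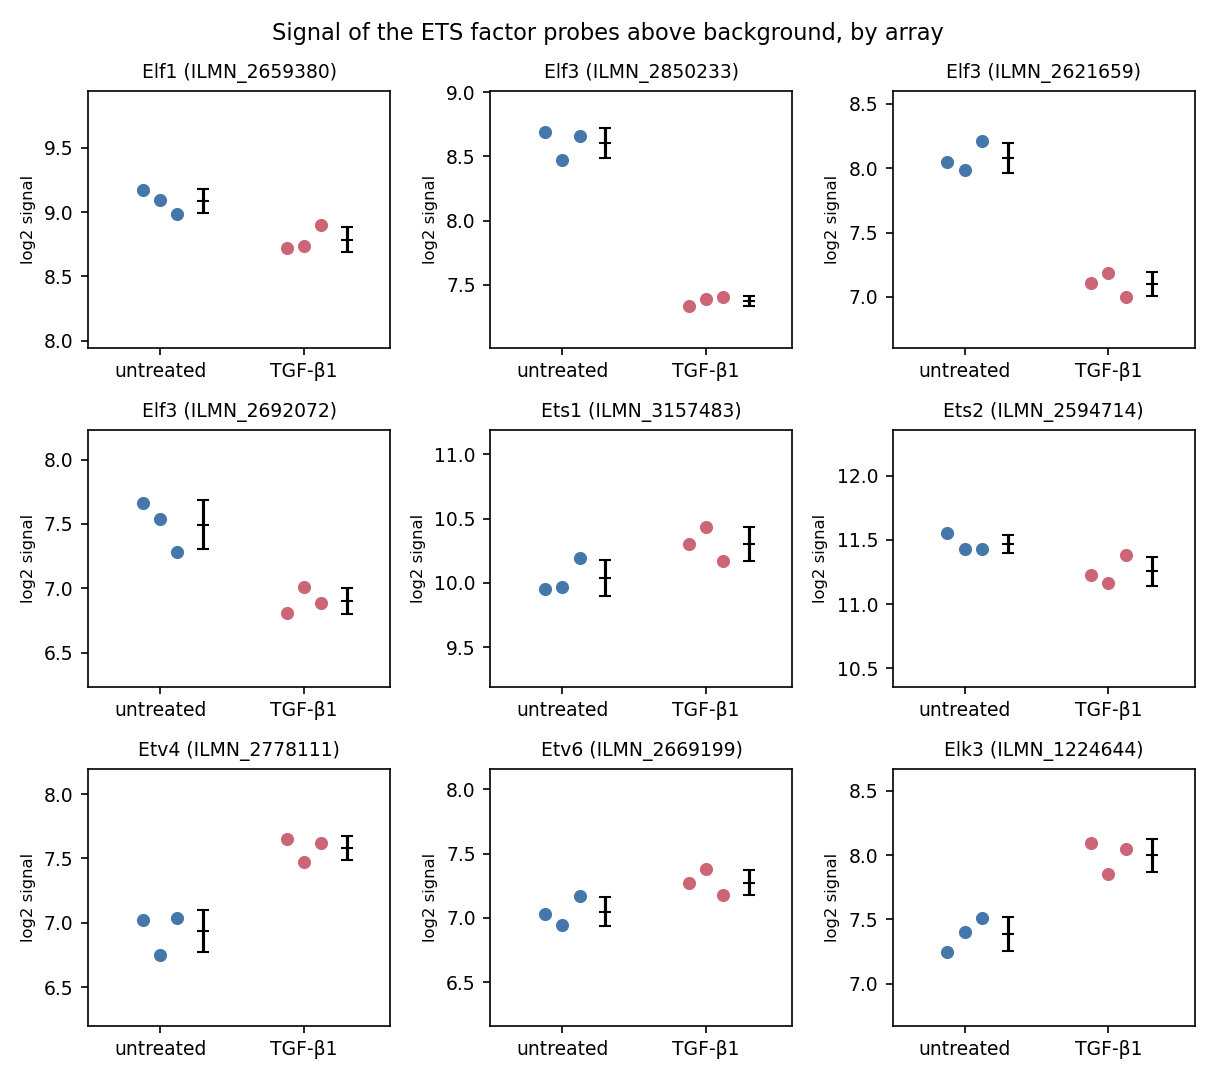
Quantile-normalized log2 signal (vertical axes, each spanning 2 log2 units around its own values) of the 9 ETS factor probes above background on the 3 untreated arrays (blue) and the 3 TGF-β1 arrays (red), with the group mean and SD as black bars. The groups stand apart for all probes but that of Ets1, with the widest gap at Elf3 probe ILMN_2850233.

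Elf3, a transcription factor of epithelial cells, fell further than any other member. Its brightest probe, ILMN_2850233, had quantile-normalized signals, in arbitrary units of brightness, of 413, 355 and 404 units in untreated cells and 161, 168 and 170 units after TGF-β1. The lowest untreated array stood well above the highest treated one. The mean log2 signal went from 8.61 ± 0.12 (SD, n = 3) to 7.38 ± 0.039 (SD, n = 3). On the log2 scale the change was -1.23 (SE 0.090, 95% confidence interval -1.43 to -1.02, limma adjusted p = 2.29e-05), or a 2.34-fold lower signal, and it placed Elf3 at position 199 from the most decreased of the 7725 genes. In RNA from a whole culture, fewer cells with the transcript and less of it per cell cannot be told apart.

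Both other Elf3 probes gave the same direction at lower signal. Probe ILMN_2621659 read 264, 253 and 296 units in untreated cells and 138, 146 and 128 units after TGF-β1, or -0.98 on the log2 scale (SE 0.096, limma adjusted p = 0.000122). Probe ILMN_2692072 read 203, 186 and 156 units against 112, 129 and 118 units, or -0.59 on the log2 scale (SE 0.12, limma adjusted p = 0.00514). The groups did not overlap at either probe, and the dimmer the probe, the smaller was its change. With the background corrected before normalization the 3 probes gave log2 fold changes of -1.65, -1.48 and -1.04, in the same order.

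The bases before the Elf3 transcription start are shown because Elf3 carried the widest change and because ETS factors can act on the genes of other ETS factors. They come from RefSeq on build GRCm38.p6, chr1:135258473-135258722, on the minus strand, and run 5′ to 3′ up to the base before the start, with capitals at each ETS core.
Elf3 promoter: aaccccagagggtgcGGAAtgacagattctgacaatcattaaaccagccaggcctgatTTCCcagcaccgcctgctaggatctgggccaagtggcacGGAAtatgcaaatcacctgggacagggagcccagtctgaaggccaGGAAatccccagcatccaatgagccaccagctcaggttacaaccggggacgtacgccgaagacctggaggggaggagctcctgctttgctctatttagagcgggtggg
The window of 250 bases held 4 ETS cores (GGAA, or TTCC on the other strand) and 1 Smad box (CAGAC on either strand), and no AP-1 site (TGAGTCA on either strand). Among the 32851 RefSeq promoter windows of the same length 93.4% held at least 1 ETS core, 33.4% held at least 4 and 42.2% held a Smad box. Neither of the longer ETS motifs CCGGAAGT and CAGGAAGT, which contain the core, was found in the windows of the members, beside 2.88% and 2.69% of all windows. Such matches are letters only, and no binding was measured here.

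Ehf, an epithelial relative of Elf3, was not above background on any array. Its single probe stayed between 62.4 and 69.2 units with detection p-values of 0.781 to 0.969, so that a level of Ehf could not be compared between the groups. Elf1, a broadly expressed factor known best from blood cells, was detected on all arrays. Its probe ILMN_2659380 read 576, 545 and 507 units in untreated cells and 422, 427 and 477 units after TGF-β1. All treated arrays lay below all untreated ones, but the distance was small beside that of Elf3. The mean log2 signal went from 9.08 ± 0.093 to 8.79 ± 0.098 (SD, n = 3 each), a log2 fold change of -0.30 (SE 0.092, 95% confidence interval -0.51 to -0.08, limma adjusted p = 0.0399).

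The Elf1 call rested on single arrays. It was lost without untreated replicate 1 (adjusted p = 0.133), without untreated replicate 2 (0.111), without TGF-β1 replicate 1 (0.123) and without TGF-β1 replicate 2 (0.127). Within each group the order of the Elf1 signals followed the order of the mean non-normalized signal of the arrays, which was 519, 518 and 435 units in untreated cells and 406, 439 and 519 units after TGF-β1. With this mean as a covariate, an alternative chosen after seeing the data, Elf1 had a log2 fold change of -0.23 (adjusted p = 0.0288). The Elf1 decrease was therefore of the same sign in every alternative, from -0.35 to -0.23, and on either side of the threshold.

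**Figure D2:**
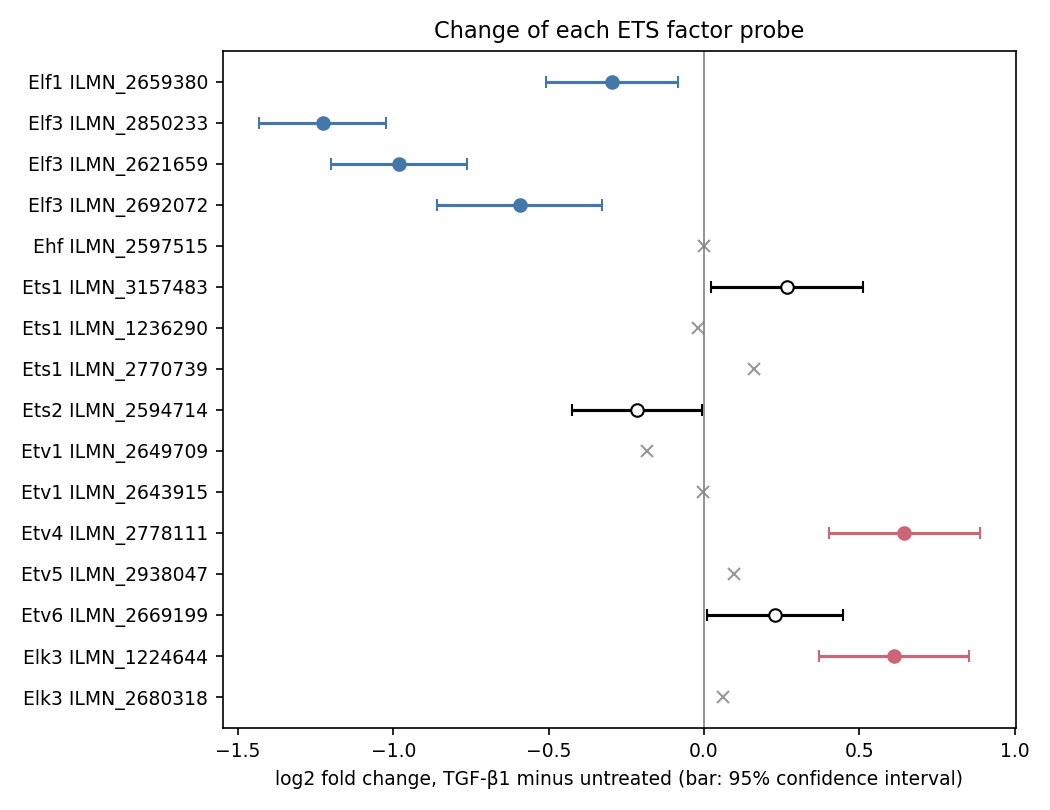
Log2 fold change of TGF-β1 over untreated (horizontal axis) for each of the 16 ETS factor probes, with 95% confidence intervals from limma for the 9 tested ones. Blue marks probes that fell, red those that rose and open circles those that did not pass the test, while grey crosses mark the 7 probes not above background, which were not tested. The 3 Elf3 probes lie at -1.23, -0.98 and -0.59, and the Etv4 and Elk3 probes at 0.64 and 0.61.

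Etv4, Etv1 and Etv5 form the PEA3 group, whose genes are known to be switched on by fibroblast growth factor and ERK signalling. Only Etv4 was above background. Its probe ILMN_2778111 read 130.0, 108 and 131 units in untreated cells and 201, 178 and 197 units after TGF-β1. The lowest treated array exceeded the highest untreated array. The mean log2 signal rose from 6.94 ± 0.16 to 7.58 ± 0.094 (SD, n = 3 each), a log2 fold change of 0.64 (SE 0.11, 95% confidence interval 0.40 to 0.89, limma adjusted p = 0.00221), or 1.56-fold. Etv4 took position 376 from the most increased gene. It was close to background before treatment, with a detection p of 0.0113 on untreated replicate 2, and after background correction its log2 fold change was 1.11 (adjusted p = 0.00375).

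The other PEA3 genes gave no measurable level. The brighter Etv1 probe read 71.2 to 84.7 units and the dimmer Etv1 probe 62.0 to 71.6 units. The Etv5 probe came nearest to detection among the untested probes, at 86.1 to 100.04 units with detection p-values of 0.0539 to 0.170. The lowest detected signal of an array was 97.8 to 101.1 units, so that a difference at or below this level could not be seen. Whether Etv4 alone of the PEA3 group rose was thus not measured.

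Elk3 is a ternary complex factor, which binds DNA together with serum response factor and is known as a repressor that ERK phosphorylation turns into an activator. Its probe ILMN_1224644 read 152, 169 and 183 units in untreated cells and 274, 231 and 265 units after TGF-β1. All treated arrays lay above all untreated ones. From a mean log2 signal of 7.39 in untreated cells, with an SD of 0.13 in each group (n = 3 each), it rose by 0.61 on the log2 scale (SE 0.11, 95% confidence interval 0.37 to 0.85, limma adjusted p = 0.00289), or 1.53-fold. Elk3 took position 417 from the most increased gene, close to Etv4. A second Elk3 probe, ILMN_2680318, was not above background, at 77.2 to 88.9 units, so that the increase of Elk3 stands on 1 probe.

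The corresponding bases for Elk3 are shown as those of a member that rose. Etv4, which rose slightly more, had no entry among the reference promoters used here. They lie at chr10:93311160-93311409 of GRCm38.p6 on the minus strand, with ETS cores in capitals.
Elk3 promoter: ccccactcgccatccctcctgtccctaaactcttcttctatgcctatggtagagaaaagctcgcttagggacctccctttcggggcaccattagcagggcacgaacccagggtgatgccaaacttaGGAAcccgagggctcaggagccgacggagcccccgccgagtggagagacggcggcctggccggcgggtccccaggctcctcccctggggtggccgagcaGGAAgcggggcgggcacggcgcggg
This window held 2 ETS cores, a number reached or passed by 76.8% of all windows, and no Smad box or AP-1 site. The reference sequences matched 7 of the 10 members, Elf1, Elf3, Ets2, Etv1, Etv5, Etv6 and Elk3, in 10 windows, since some genes had a second start. The number of ETS cores in these windows ran from 0 to 4, beside a median of 3 over all promoters. Elf3, which fell, held 4, and Elf1, also called lower, held 2 in 1 window and 0 in the other. Etv5, which was not above background, held 0 in 1 window and 4 in the other. A link between the number of cores and the direction of change was not tested.

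Ets1 and Ets2 are paralogs known as direct ERK substrates, and both were abundant enough to be detected on every array. The Ets1 probe ILMN_3157483 read 989.7, 999.9 and 1174 units in untreated cells and 1265, 1385 and 1155 units after TGF-β1. The groups overlapped, since untreated replicate 3 lay above TGF-β1 replicate 3. The log2 fold change was 0.27 (SE 0.11, 95% confidence interval 0.02 to 0.51, limma adjusted p = 0.0930) and did not pass. Without untreated replicate 3 it was 0.35 and passed (adjusted p = 0.0331). Both further Ets1 probes, annotated to another RefSeq transcript than ILMN_3157483, were not above background, at 85.0 to 96.2 and 67.9 to 87.1 units.

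Ets2 read 3003, 2761 and 2761 units in untreated cells and 2392, 2294 and 2663 units after TGF-β1 on probe ILMN_2594714. The treated arrays all lay below the untreated ones, by a narrow margin. The log2 fold change was -0.22 (SE 0.091, 95% confidence interval -0.43 to -0.01, limma adjusted p = 0.109), which did not pass. Etv6, a repressor that forms polymers through its pointed domain, read 130.5, 123 and 144 units in untreated cells and 154.5, 166 and 145 units after TGF-β1 on probe ILMN_2669199. Here all treated arrays lay above the untreated ones, again narrowly, with TGF-β1 replicate 3 just over untreated replicate 3. The log2 fold change was 0.23 (SE 0.096, 95% confidence interval 0.01 to 0.45, limma adjusted p = 0.107). For Ets1, Ets2 and Etv6 the intervals reach from nearly no change to changes of the size seen for Elf1 or larger, so that the data do not show these genes to be unaffected.

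With 3 arrays in each group the smallest p of a two-sided exact permutation test is 0.1, and this test gave 0.1 for the 8 probes whose groups did not overlap and 0.2 for Ets1. The signals of different probes depend on the probe as well as on the transcript, so that the members were not ranked by level.

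**Figure D3:**
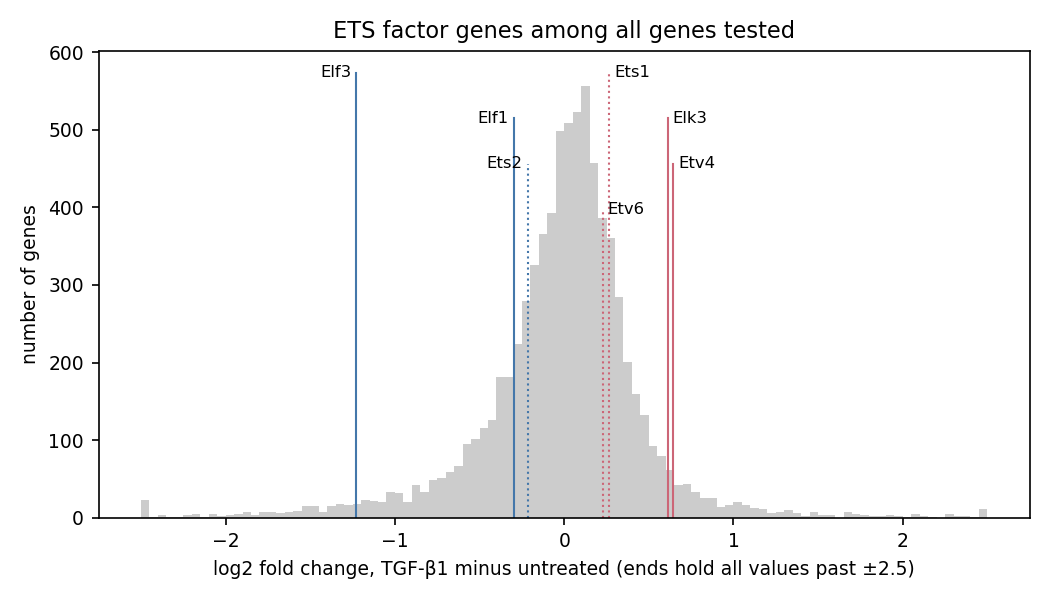
Number of genes (vertical axis) by log2 fold change of TGF-β1 over untreated (horizontal axis) for the 7725 genes tested, each by its brightest probe, with the 7 tested ETS genes as lines, solid where called and dotted where not. Elf3 at -1.23 lies in the lower tail, Elk3 at 0.61 and Etv4 at 0.64 lie next to each other in the upper part, and the other 4 lie in the body of the distribution.

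The genes whose pattern over the 6 arrays was nearest to Elf3 and to Etv4 were found by the mean absolute difference of log2 signals, each gene centred on its own mean. The 3 nearest to Elf3 were Tmem62 at 0.041, Adamts15 at 0.057 and Tgfbr2 at 0.061. These genes had log2 fold changes of -1.19, -1.29 and -1.11. Adamts15 encodes a secreted metalloprotease and Tgfbr2 the receptor subunit that binds TGF-β. The 3 nearest to Etv4 were Erc2 at 0.026, Dbn1 at 0.028 and Tex10 at 0.039, with log2 fold changes of 0.69, 0.63 and 0.63. Erc2 and Dbn1 are known best as a presynaptic scaffold gene and an actin-binding gene of neurons. Over 6 arrays in 2 groups such nearness mainly reflects a like difference between the groups.

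The rest of the family was mostly not detected. Of 17 further ETS genes 14 had a probe and 4 could be tested, of which 1 rose and 3 did not pass, with a median log2 fold change of 0.12 that became 0.25 after background correction. The gene that rose was Gabpa, the DNA-binding subunit of the GA-binding protein. It read 132, 155 and 159.8 units in untreated cells and 179, 202 and 186 units after TGF-β1, a log2 fold change of 0.35 (SE 0.10, limma adjusted p = 0.0321). The Gabpa groups did not overlap, but its call was lost without untreated replicate 1 (adjusted p = 0.113), untreated replicate 2 (0.0673), TGF-β1 replicate 2 (0.116) or TGF-β1 replicate 3 (0.0632).

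Etv3, a repressor, had a log2 fold change of -0.25 (limma adjusted p = 0.102), and Erf, also a repressor, of 0.08 (adjusted p = 0.555). Elf2, a relative of Elf1, did not pass on its brightest probe, at 0.16 (adjusted p = 0.420), on which untreated replicate 3 read 144 units beside 103 and 106 on the others. It passed on that probe without untreated replicate 3 (adjusted p = 0.0293), and 2 dimmer Elf2 probes rose by 0.29 and 0.27 (adjusted p = 0.0288 and 0.0435). Elf2 was therefore a gene whose probes gave different calls of the same sign. Elf4, Elf5, Elk4, Erg, Etv2, Fli1, Spdef, Spi1, Spib and Spic had no probe that passed the detection filter, among them the regulators of blood lineages Spi1 and Spib and the endothelial factors Erg and Etv2. In the reference annotation no protein-coding gene lies between Ets1 and Fli1, between Ets2 and Erg or between Ehf and Elf5. In the first of these pairs and in the second, 1 gene was detected on all arrays and its neighbour was not tested.

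Genes that act upstream of ETS factors, with them or downstream of them were described by lists. Each gene was counted by its brightest tested probe. The counts of every list here and below stand beside 16.4% higher and 17.8% lower over all genes tested. The lists are small, and no count was tested against these shares. Of the 5 tested genes of the Ras and ERK cascade 1 rose and 4 did not pass, with a median log2 fold change of 0.05 beside 0.03 over all genes. Map2k2, a kinase that activates ERK, rose by 0.40 (limma adjusted p = 0.0117) on its brightest probe, while its dimmer probe, at 0.05 (adjusted p = 0.687), did not pass. Nras at 0.16 and Araf at -0.14 did not pass. Among DNA-binding partners and coregulators 4 of 11 tested genes rose and 7 did not pass, with a median of 0.23. Jun, which binds beside ETS factors as part of AP-1, rose by 1.87 (adjusted p = 6.46e-06), and Runx1, a partner of Ets1 on DNA, by 1.21 (adjusted p = 3.05e-05). The Runx1 increase took place in cells that lack its relative Runx3, in both groups alike.

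The smaller changes among the partners were less firm. Sin3a, a scaffold of repressor complexes, had a log2 fold change of 0.35 (limma adjusted p = 0.0394), and its call was lost when any 1 of 5 arrays was left out (adjusted p from 0.0521 to 0.137). Gabpb1, the subunit that joins Gabpa to form the active protein, had 0.29 (adjusted p = 0.0444) on its brightest probe, was higher on both of its tested probes, and lost its call when any 1 of 5 arrays was left out (0.0572 to 0.147). Srf, the partner of Elk3, at 0.27 (adjusted p = 0.119) and the deacetylase gene Hdac3 at 0.23 (adjusted p = 0.0928) did not pass.

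Among genes of the ubiquitin ligases that degrade ETS factors 2 of 6 tested genes rose and 4 did not pass, with a median log2 fold change of 0.17. Fbxw7, which selects targets for an SCF ligase, rose by 0.42 (limma adjusted p = 0.00578). Ddb1, an adaptor of the Cul4 ligases, had 0.35 (adjusted p = 0.0354), a call lost when any 1 of 4 arrays was left out (0.0729 to 0.110). Cop1, known to direct Etv4 and its relatives to degradation, had 0.18 with an SE of 0.22 (adjusted p = 0.572), and Cul4a had 0.15 (adjusted p = 0.222). The protein levels that these ligases act on were not measured.

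Feedback inhibitors of ERK that have been reported as Etv4 and Etv5 targets went both ways, with 1 of 5 tested genes higher, 1 lower and 3 not passing. Dusp6, a phosphatase of ERK, fell by 0.61 (limma adjusted p = 0.00194) on its brightest probe, which read 2489, 2703 and 2420 units in untreated cells and 1660, 1525 and 1825 units after TGF-β1. Its other tested probes, with changes of -0.46 (adjusted p = 0.279) and -0.14 (adjusted p = 0.422), did not pass. Dusp4, a nuclear phosphatase of the same family, rose by 0.57 (adjusted p = 0.00149) and was higher on both of its tested probes. Spry4 at -0.31 (adjusted p = 0.0783) and Spred2 at 0.18 (adjusted p = 0.163) did not pass. In the same arrays Etv4 was higher and Etv5 not above background.

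Of 7 tested immediate-early genes that serum response factor and its ternary complex factors are known to drive, 2 rose and 5 did not pass, with a median log2 fold change of 0.27. Junb rose by 1.71 (limma adjusted p = 4.44e-06). Fosb, undetected on all untreated arrays, rose by at least 1.14-fold (adjusted p = 0.0018). Egr1 at 0.33 (adjusted p = 0.217) and Srf itself did not pass. The genes that rose both encode AP-1 subunits, and the arrays were taken at 24 h. With the array mean as a covariate, a choice made after seeing the data, 5 of the 7 genes were higher.

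Protease and matrix genes with known ETS elements held the largest single increase of the 8 lists, with 4 of 9 tested genes higher, 2 lower and 3 not passing. Timp1, an inhibitor of metalloproteases, rose by 2.26 on the log2 scale (limma adjusted p = 8.52e-07), Itga5, a subunit of the fibronectin receptor, by 1.21 (adjusted p = 5.56e-05) and the collagenase gene Mmp13 by 1.19 (adjusted p = 1.32e-05). Mmp14, a membrane-bound protease, had 0.48 (adjusted p = 0.0176), which was lost without untreated replicate 2 (0.0605) or TGF-β1 replicate 1 (0.0612). Heparanase (Hpse) at -0.37 (adjusted p = 0.0200) and tenascin C (Tnc) at -0.31 (adjusted p = 0.0229) fell, were named after their values were seen, and each lost its call when any 1 of 4 arrays was left out (0.0597 to 0.0867). The list's median was 0.06, and 0.48 under the stricter detection filter, which left 7 of the 9 genes. Plau at -0.17 and Mmp1a at 0.06 did not pass.

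Of 6 tested epithelial genes that have been reported as targets of Elf3 or Ehf, 1 rose, 2 fell and 3 did not pass, with a median log2 fold change of -0.14 that became -0.27 when either untreated replicate 3 or TGF-β1 replicate 3 was left out. Tgfbr2, known in mouse intestine as a gene that Elf3 activates, read 3692, 3199 and 3638 units in untreated cells and 1674, 1589 and 1621 units after TGF-β1. The change was -1.11 on the log2 scale (SE 0.089, limma adjusted p = 3.88e-05), close in size to that of Elf3. The place of Tgfbr2 among the 3 genes nearest to Elf3 mainly restates this like difference between the groups. The dimmer Tgfbr2 probe fell by 0.55 (adjusted p = 0.00459). Whether Elf3 acts on Tgfbr2 in these cells was not tested. Grhl3, a factor of epidermal differentiation, was at least 1.37-fold lower (adjusted p = 0.00136) and was not above background after TGF-β1. Krt18 rose by 0.47 (adjusted p = 0.0137), while its keratin partner Krt8 at -0.08 (adjusted p = 0.605) and Sprr2a1 at -0.20 (adjusted p = 0.537) did not pass. The genes of this list thus did not share a direction.

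**Figure D4:**
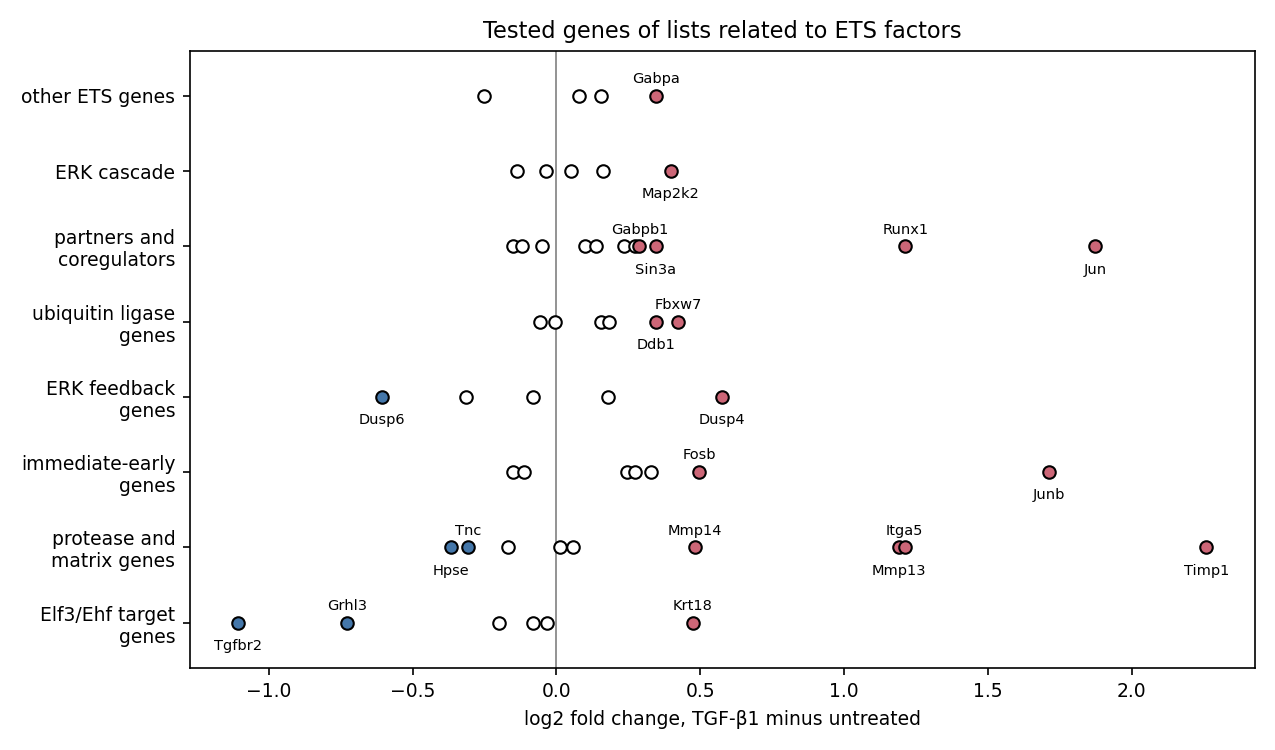
Log2 fold change of TGF-β1 over untreated (horizontal axis) for each tested gene of the 8 lists, by its brightest probe, with filled red points for genes that rose, filled blue points for genes that fell and open points for genes that did not pass. Jun, Runx1, Junb, Timp1, Itga5 and Mmp13 lie above 1, and Tgfbr2 at -1.11 is the lowest point.

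The direction of every tested member probe was the same under all alternative ways of processing. Over these alternatives the brightest Elf3 probe ranged from -1.65 to -0.93, where -0.93 is the mean of its probes, Etv4 from 0.54 to 1.11 and Elk3 from 0.54 to 0.88. These 3 genes passed under each alternative in which they were tested. Etv4 was not tested under a detection p under 0.01 on all 6 arrays.

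**Figure D5:**
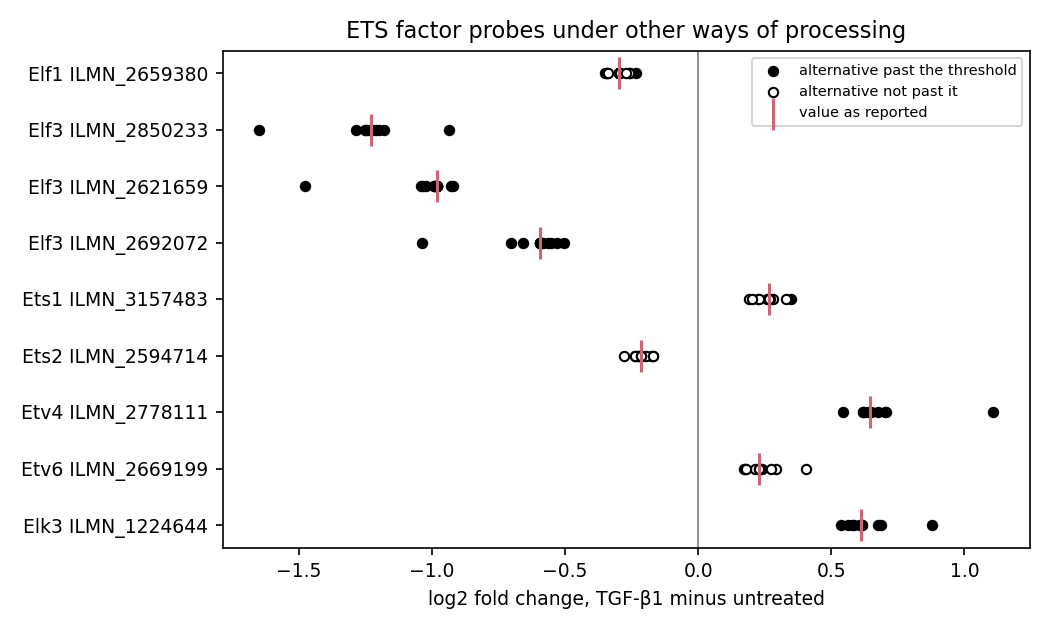
Log2 fold change of TGF-β1 over untreated (horizontal axis) of the 9 tested ETS factor probes as reported (red bar) and under each alternative, filled where past the threshold and open where not. Only Elf1 and Ets1 have both filled and open points.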

How the data were processed

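Expression was measured in 3 untreated and 3 TGF-β1-treated samples of GIF-14 cells. The authors processed the arrays in GenomeStudio. The deposited non-normalized file gives a signal intensity per probe from which no background was subtracted, the deposited detection values are p-values against the negative control beads, and the deposited normalized values are intensities that the authors quantile-normalized. The background left in the signals makes fold changes of dim probes smaller.

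The non-normalized intensities were quantile-normalized and put on the log2 scale in limma 3.58.1 (R 4.3.3). Testing required a detection p under 0.05 on every array of 1 group or both, which held for 11189 probes of 7725 genes. Groups were compared with lmFit and eBayes, which stood in for the SAM of the study, with p-values adjusted by Benjamini-Hochberg over all probes tested and a threshold of 0.05. A gene was called by its brightest tested probe. A fold against a group at 0.05 or more on all arrays is a lower bound, set by the lowest detected signal of each of its arrays. Symbols came from the platform table, with 23978 probes named and 1719 not. Promoters are from RefSeq (GRCm38.p6). The number of detected probes per array, 11381 to 11797, and the 3 arrays per group limit the precision. The fit was checked on simulated data with independent errors. It recovered 92 of 100 changes of 2-fold and 61 of 100 changes of 1.5-fold, with 10 false calls. Changes of about 1.5-fold or less can therefore be missed.

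The members, the 8 lists of related genes and the 4 marker lists were chosen with earlier results of these data known. Named genes were all members, every tested ETS gene, from each list up to 4 genes past the threshold and at most 2 not past it with the largest changes, and the 3 nearest patterns to Elf3 and Etv4. Hpse and Tnc are outside this rule and were named after their values were seen. Alternatives were background correction (neqc), scaling, the authors' values, other detection filters, 1 probe or the mean of probes per gene, the replicate number as a block, another variance prior, a 1.5-fold minimum and leaving out each array. The array mean as a covariate was added after seeing the data.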

Additional observations from a re-analysis of the deposited data

How the results depend on the processing

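No tested member probe changed direction under any alternative. Of the member genes 2 rose and 2 fell as reported, and the number that fell was 1, with Elf1 lost, after neqc background correction (adjusted p = 0.0559), without the detection filter (0.0502), with a 1.5-fold minimum and with the replicate block (0.144). Requiring a detection p under 0.01 on all 6 arrays left 1 gene and 1 probe that rose, since Etv4 was not tested there. Leaving out each array gave 2 to 3 genes higher, 1 to 2 genes lower, 2 to 3 probes higher and 3 to 4 probes lower. Deviations of same-numbered arrays from their group means correlated at -0.67, 0.07 and -0.78, so that no pairing by replicate number was seen. Deviations from a mean of 3 arrays depend on each other, so these values cannot decide whether the cultures were paired. Some arrays of different numbers deviated together, with 0.78 for untreated 3 and TGF-β1 1, 0.70 for untreated 1 and TGF-β1 3, and 0.57 for untreated 2 and TGF-β1 3. Over all probes the replicate block gave 946 higher and 1151 lower and the 1.5-fold minimum 620 and 869, and the array mean as a covariate, added after seeing the data, 2696 and 2474, against 1835 and 1776 as reported. Of 408 list counts and medians under the alternatives 41 moved. No fit with the BeadChip as a block was made, as no column names a BeadChip. Signals under about 101.1 units could not be told from background, which limits Ehf, Etv1 and Etv5.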
